A study of Mus musculus with 6 samples.

Results

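Apolipoproteins are the protein coats of the lipid particles that the liver releases into blood, and 10 of their genes, Apoa1, Apoa2, Apoa4, Apoa5, Apob, Apoc1, Apoc3, Apoe, Apoh and Apom, were examined here among the 41388 Ensembl genes of the deposited table. The genes were a fixed list of symbols, matched through GENCODE M21, and the list was drawn up with their values in the present comparison already known. Levels and differences of the 10 genes are therefore given as a description, without a test. All 10 were above the filter of a mean of 0.5 RPKM (reads scaled to exon length and library size), and 12693 genes in all were above it.

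Primary murine hepatocytes from wild-type C57BL/6J mice were infected in culture with adenovirus encoding either β-galactosidase (β-gal), the control protein, or Aloxe3, which encodes the epidermal-type lipoxygenase eLOX3. Every culture thus carried an adenovirus, at 1000000 particles for each 1000000 cells, and RNA was taken after 24 h to ask what forced Aloxe3 expression changed in the transcriptome. There were 3 libraries with β-gal (replicates 1, 2 and 3) and 3 with Aloxe3 (replicates 7, 8 and 9), from a single sequencing run. The age and sex of the mice, the promoter that drove either transgene and whether the libraries of a group came from separate cultures or animals were not given in the sources used here, so that the spread between libraries may be technical. The depth derived from the steps of the RPKM values was 29575553 to 32431318 reads in the β-gal libraries and 25521908 to 30399198 in the Aloxe3 libraries. Aloxe3 itself was at 2.04, 2.06 and 1.74 RPKM with β-gal and at 42.3, 45.8 and 56.3 RPKM with Aloxe3 (log2 difference 4.05, SE 0.101, limma adjusted p = 4.74e-06). These are reads assigned to the mouse gene, and whether the virus carried the mouse or the human gene was not settled from the sources used here, so that the difference may not give the level of the transgene.

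Hepatocytes package triglyceride and cholesterol around apolipoprotein B into very low density lipoprotein (VLDL), and supply apolipoproteins A-I and A-II for high density lipoprotein (HDL). Smaller exchangeable apolipoproteins move between these particles and set how fast their triglyceride is hydrolysed by lipoprotein lipase and how readily the remnants are taken up through receptors of the LDL receptor family. Many of the genes lie in clusters, Apoa1, Apoc3, Apoa4 and Apoa5 side by side on chromosome 9 and Apoe and Apoc1 on chromosome 7, and their liver transcription is classically attributed to HNF4A, FOXA, C/EBP and nuclear receptor factors.

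The start regions of 4 genes are shown as background, and no result below rests on them. They were picked by their values: Apoa2 and Apoh had the most negative differences. Apoa1 and Apoa5, at opposite ends of the chromosome 9 cluster, had differences of opposite signs. Whether a motif goes with a difference was not tested. Each sequence runs 5′ to 3′ on the strand of the gene, from 250 bases before to 50 bases after a RefSeq start (GRCm38.p6). They lie at chr1:171224804-171225103 (Apoa2), chr11:108395047-108395346 (Apoh), chr9:46228380-46228679 (Apoa1) and chr9:46268358-46268657 (Apoa5), all on the + strand, and capitals mark matches to the motifs searched.
Apoa2: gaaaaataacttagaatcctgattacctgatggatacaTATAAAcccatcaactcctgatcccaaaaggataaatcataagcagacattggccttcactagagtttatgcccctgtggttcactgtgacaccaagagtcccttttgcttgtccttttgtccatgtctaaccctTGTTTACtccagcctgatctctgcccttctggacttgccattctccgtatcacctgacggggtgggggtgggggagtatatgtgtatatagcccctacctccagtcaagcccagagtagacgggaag
Apoh: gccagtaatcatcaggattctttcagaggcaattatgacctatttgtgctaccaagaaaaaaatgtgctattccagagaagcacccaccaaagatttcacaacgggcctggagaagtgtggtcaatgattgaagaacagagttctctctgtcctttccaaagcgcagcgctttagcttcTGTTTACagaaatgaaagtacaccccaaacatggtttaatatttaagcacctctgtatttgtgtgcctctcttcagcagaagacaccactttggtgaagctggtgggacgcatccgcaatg
Apoa1: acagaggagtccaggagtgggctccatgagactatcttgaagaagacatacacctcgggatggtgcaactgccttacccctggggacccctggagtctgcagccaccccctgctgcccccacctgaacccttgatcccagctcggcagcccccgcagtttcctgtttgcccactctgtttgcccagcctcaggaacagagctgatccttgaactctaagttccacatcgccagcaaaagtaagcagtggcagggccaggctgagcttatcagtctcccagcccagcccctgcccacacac
Apoa5: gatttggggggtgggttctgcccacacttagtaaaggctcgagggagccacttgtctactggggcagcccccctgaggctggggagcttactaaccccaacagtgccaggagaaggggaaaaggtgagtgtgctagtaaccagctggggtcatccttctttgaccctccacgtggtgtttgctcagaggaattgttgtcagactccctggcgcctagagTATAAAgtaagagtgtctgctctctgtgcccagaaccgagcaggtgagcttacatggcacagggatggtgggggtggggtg
The capitals are TATAAA, the letters of a TATA box, which was in 13.6% of the 32851 windows of the table, and TGTTTAC, a forkhead factor core, which was in 3.65%. Counted from the start site, the forkhead core began at -77 in Apoa2 and at -71 in Apoh, TATAAA began at -31 in Apoa5 and at -212 in Apoa2, and the Apoa1 window held no match. Apoa5 has another RefSeq start, at 46268633, from which the same TATAAA began at -56.

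Of the 10 genes, 8 had at least 1 window in the RefSeq table, 12 windows in all, and Apoc1 and Apoc3 had none. On both strands, TATAAA was found in windows of 4 of the 8 genes (Apoa2, Apoa5, Apob and Apoe), or 5 of the 12 windows (the overlapping windows of Apoa5 hold the same match), and TGTTTAC in 3 (Apoa2, Apoh and Apoe), or 3 of the 12. The C/EBP-type motif TTGCNNAA was in windows of 2 genes (Apob and a second, upstream start of Apoa2), or 2 of the 12, against 10.8% of all windows, and GTTAAT, the core of HNF1 sites, was in 1 (Apoe), or 1 of the 12, against 7.1%. The HNF4-type motif CAAAGTCCA and the nuclear receptor motif CAAAGGTCA were in none of them, and in 0.475% and 0.478% of all windows. In Apoe, a pair of TATAAA matches on opposite strands overlapped. All Apoe matches were in windows of RefSeq starts inside the GENCODE gene, which runs from 19696109 to 19699188 (- strand). The window at its annotated start, 19699139 to 19699438, held none. A match here is a string of letters in a short window, and its absence says nothing of the factor. The Apoh window lies inside the GENCODE gene, whose annotated start is at 108343354, far upstream of the RefSeq start.

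Before any comparison, the apolipoprotein genes covered a wide range of levels in the control cells. Apoe, the ligand that carries remnants to their receptors, was by far the highest of the 10, at 1542, 1607 and 1539 RPKM in the 3 β-gal libraries (1563 ± 38.2, SD, n = 3), rank 20 among all genes of the table. Apoc1, an inhibitor of lipoprotein lipase and of remnant uptake, followed at 313 ± 16.0 RPKM, rank 104. Next came the HDL proteins Apoa2 (280.0 ± 8.31 RPKM, rank 128) and Apoa1 (243 ± 2.85 RPKM, rank 146) and the VLDL scaffold Apob (243 ± 10.8 RPKM, rank 147). The libraries of Apoa1 and Apob overlapped, and no other pair of neighbours in the order did.

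The remaining 5 genes lay lower. Apoc3, which encodes an inhibitor of triglyceride clearance, was at 73.5 ± 3.77 RPKM (SD, n = 3) and Apoh, a phospholipid-binding plasma glycoprotein, at 48.3 ± 1.22 RPKM. Apoa4, an intestinal apolipoprotein that the fasted or fatty mouse liver also makes, was at 11.0 ± 1.13 RPKM. Apom, the HDL carrier of sphingosine-1-phosphate, was at 8.14 ± 0.567 RPKM and Apoa5, an activator of triglyceride clearance, at 3.98 ± 0.142 RPKM, rank 7967. In the Aloxe3 libraries the order differed in that Apob, at 245 RPKM, stood above both Apoa2, at 237 RPKM, and Apoa1, at 227 RPKM, with libraries that overlapped those of either.

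**Figure D1:**
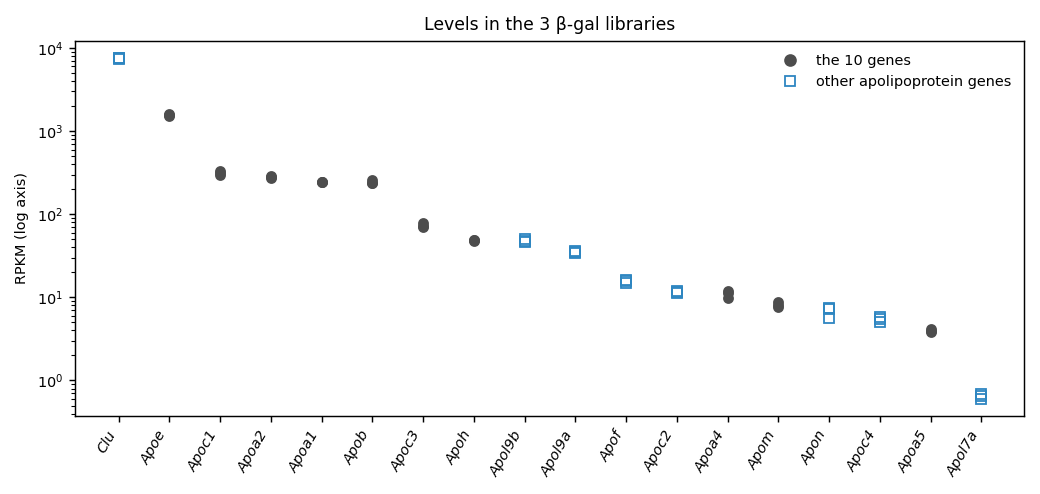
Level in RPKM (log axis) of the 10 apolipoprotein genes (filled circles) and of 8 other apolipoprotein genes above the filter (open squares) in each of the 3 β-gal libraries, 1 point per library. Apoe, at 1563 RPKM on average, lies far above the other 9 genes and below Clu, at 7525 RPKM.

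Clu, also known as apolipoprotein J, was not among the 10 but had the highest level of all genes in the control cells, at 7445, 7514 and 7617 RPKM. The 10 genes together took 0.826% ± 0.0142 (SD, n = 3) of all RPKM in the β-gal libraries, and Apoe alone made up 56.1% ± 0.327 of their sum.

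The sources call the cells hepatocytes, and their markers were uneven. Alb (4524 ± 26.2 RPKM, SD, n = 3) and Hpx (3754 ± 68.9 RPKM), which encode albumin and hemopexin, were very high with β-gal, whereas Cps1 (0.985 ± 0.0690 RPKM), Cyp2e1 (2.17 ± 0.129 RPKM) and Asgr1 (1.65 ± 0.183 RPKM), usually strong in liver, were low. Summed over 8 hepatocyte markers, of which Alb and Hpx are nearly the whole, the level was 8474 to 8632 RPKM with β-gal and 8277 to 8689 with Aloxe3. Single markers differed within that sum. Ttr, which encodes the carrier transthyretin, was at 119, 131 and 122 RPKM with β-gal and at 99.4, 101 and 101 RPKM with Aloxe3, and was lower (log2 difference -0.30, SE 0.043, limma adjusted p = 0.0448), a call that held in 4 of 13 alternatives, with an adjusted p from 0.0019 to 0.164, and with no library left out. Cps1 was at 1.64, 1.29 and 1.56 RPKM with Aloxe3, above β-gal in every library (log2 difference 0.33, limma adjusted p = 0.161), and so was Tat, which was below the filter (0.278 ± 0.0778 and 0.578 ± 0.122 RPKM). Sums over 6 endothelial markers (24.6 to 28.7 and 24.5 to 28.6 RPKM), 6 stellate markers (3.36 to 3.90 and 3.50 to 3.83 RPKM, Lrat at 0 in all libraries) and 4 cholangiocyte markers (78.2 to 93.5 and 74.7 to 93.0 RPKM) overlapped between groups. The sum over 7 macrophage markers did not, at 151 to 154 RPKM with β-gal and 133 to 146 with Aloxe3. It was nearly all Cd68 (log2 difference -0.15, limma adjusted p = 0.262), and the defining Kupffer cell markers Clec4f and Vsig4 were below the filter. Transcripts of the mitochondrial genome took 6.42% to 6.74% of all RPKM with β-gal and 6.98% to 8.66% with Aloxe3, replicate 9 being the highest. Aloxe3 replicate 9 also stood farthest from its replicates, its chi-square (per degree of freedom) being 8.27 and 8.99 against 3.25 to 5.05 for the other pairs, and the median log2 difference of the 10 genes without it was -0.13. The part of any of these shifts in the apolipoprotein values was not tested.

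Across the comparison, the log2 difference (Aloxe3 minus β-gal, of log2(RPKM + 1)) was negative for 8 of the 10 genes and positive for Apob and Apoa5, though the signs of Apob and Apoc1, both close to 0, held in only 10 of 13 alternatives. Quantile normalization gave 7 negative and 3 positive. The median over the 10 was -0.12, beside 0.0049 over all tested genes, and it was -0.068 without Aloxe3 replicate 7. In 4 genes, Apoa2, Apoh, Apoc3 and Apoa1, every Aloxe3 library was below every β-gal library, which was so for 8.71% of all tested genes. Apoa5 was the only member with every Aloxe3 library above, as in 11.2% of tested genes, and the libraries of the other 5 overlapped. These counts are a property of the comparison on which the list was chosen, and nothing is read from them. In bulk RNA, fewer cells of a type and less RNA per cell cannot be told apart.

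**Figure D2:**
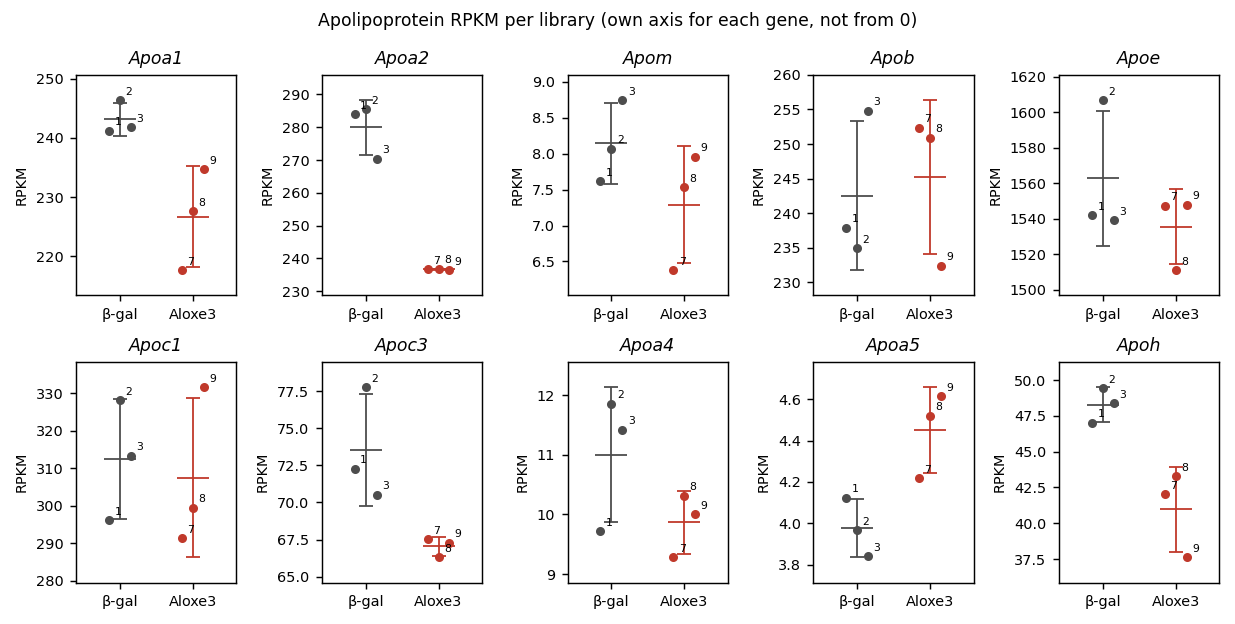
RPKM of each of the 10 genes in the 3 β-gal libraries (grey, replicates 1 to 3) and the 3 Aloxe3 libraries (red, replicates 7 to 9). Points are libraries, bars the mean ± SD (n = 3), and each panel has its own axis, which does not start at 0, so that Apoa2 (280.0 against 237 RPKM) and Apoe (1563 against 1536 RPKM) look alike in height although their relative differences are unlike.

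Among the HDL proteins, Apoa2 had the most negative difference of the family. Apoa2 encodes apolipoprotein A-II, the second most abundant protein of HDL, and lies on chromosome 1 from 171225054 to 171226379 (+ strand). It was at 284, 285 and 270 RPKM in the β-gal libraries and at 236.7, 236.9 and 236.5 RPKM in the Aloxe3 libraries. The groups were well apart, and the 3 Aloxe3 libraries were nearly equal: the mean was 15.5% lower, a log2 difference of -0.24 (SE 0.036). The SD among Aloxe3 libraries was 0.0902% of the mean, less than the 1.69% that counting error alone gives at 3244 to 3867 reads, and among β-gal libraries it was 2.97%. Over 13 alternatives the log2 difference ran from -0.27 to -0.20.

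Apoa1 encodes apolipoprotein A-I, the main protein of HDL and the activator of the cholesterol-esterifying enzyme LCAT, and lies on chromosome 9 from 46228580 to 46230466 (+ strand). Its level was 241, 246 and 242 RPKM with β-gal and 218, 228 and 235 RPKM with Aloxe3. The groups did not overlap, β-gal replicate 1 and Aloxe3 replicate 9 being the closest, and the difference of the means was -6.76% (log2 difference -0.10, SE 0.039). Because Apoa2 differed more than Apoa1, the ratio of Apoa1 to Apoa2 was 0.849, 0.863 and 0.894 in the β-gal libraries and 0.920, 0.961 and 0.993 in the Aloxe3 libraries, again without overlap. The ratio is formed within each library and does not depend on its scaling.

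Apom, on chromosome 17 from 35128997 to 35132050 (- strand), was at 7.62, 8.07 and 8.74 RPKM with β-gal and at 6.38, 7.53 and 7.96 RPKM with Aloxe3. Here the groups overlapped (log2 difference -0.14, SE 0.079), and with 165 to 265 reads per library, the fewest of the family, counting error alone is 6.22% to 7.01% of the level. The mean differed by -10.5%. Without Aloxe3 replicate 7, the lowest library, the log2 difference was -0.063.

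Of the VLDL and remnant proteins, Apob and Apoe hardly differed. Apob, on chromosome 12 from 7977648 to 8016835 (+ strand), encodes the non-exchangeable scaffold of which each VLDL particle carries a single copy. Values were 238, 235 and 255 RPKM with β-gal and 252, 251 and 232 RPKM with Aloxe3, so that each group held a library outside the other 2. The log2 difference was 0.02 (SE 0.049). With 85583 to 106936 reads per library, counting error was 0.307% to 0.326% of the level while libraries of a group differed by an SD of 4.44% to 4.54%. Being so close to 0, the difference changed sign when 1 of β-gal replicate 2, Aloxe3 replicate 7 or Aloxe3 replicate 8 was left out. Reads per gene do not separate the edited and unedited forms of the Apob transcript, which the mouse liver both makes.

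Apoe lies on chromosome 7 from 19696109 to 19699188 (- strand). It was at 1547, 1511 and 1548 RPKM with Aloxe3, against the 1542, 1607 and 1539 RPKM given for β-gal, and the groups overlapped (log2 difference -0.03, SE 0.042). Its neighbour Apoc1, from 19689481 to 19692660 on the same strand, was at 296, 328 and 313 RPKM with β-gal and at 291, 299 and 332 RPKM with Aloxe3 (log2 difference -0.02, SE 0.060). Both genes of the chromosome 7 cluster thus differed by less than the spread of the libraries. The ratio of Apoe to Apoc1 was 5.01 ± 0.175 and 5.01 ± 0.323 (SD, n = 3), and that of Apob to Apoe 0.155 ± 0.00973 and 0.160 ± 0.00847, with overlapping libraries in both cases.

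The chromosome 9 cluster holds Apoa1 and 3 genes of triglyceride metabolism, Apoc3, Apoa4 and Apoa5. Apoc3 (46232933 to 46235636, - strand) was at 72.3, 77.8 and 70.5 RPKM with β-gal and at 67.5, 66.3 and 67.3 RPKM with Aloxe3. All Aloxe3 values were below all β-gal values, with a difference of -8.81% in the mean (log2 difference -0.13, SE 0.043), and their SD of 0.968% was again under the counting error of 2.32%. Apoa4 (46240696 to 46243459, + strand) was at 9.72, 11.9 and 11.4 RPKM with β-gal and at 9.28, 10.3 and 10.0 RPKM with Aloxe3. Its groups overlapped through β-gal replicate 1 (log2 difference -0.14, SE 0.074), and the log2 difference was -0.22 without that library and -0.087 without β-gal replicate 2. Its exons share 632 bases with the antisense gene Gm10680, which is listed at 0 in all libraries, and 634 with Gm47528, which was not in the table; the strand setting of the counting was not given in the sources used here, so reads from the shared part cannot be assigned with certainty.

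Apoa5 (46268633 to 46271919, + strand) had a difference of the opposite sign to the rest of its cluster. Its RPKM was 4.12, 3.97 and 3.84 with β-gal and 4.22, 4.52 and 4.61 with Aloxe3, higher in each Aloxe3 library, by 11.9% in the mean (log2 difference 0.13, SE 0.049). The gap between β-gal replicate 1 and Aloxe3 replicate 7 was small, and with 271 to 346 reads the counting error of a library was at most 5.63% to 5.70%, where the SD of the groups was 3.56% and 4.66%. Reads of Apoa5, Apoe and Apoc1 are known only up to a whole factor and were taken at the smallest, so their counting errors are upper bounds. It shares 524 exon bases with the antisense gene Gm47544, which was not in the table. As the values of Apoa5 and Apoc3 already fix, the groups did not overlap in their ratio either, which was 0.0570, 0.0510 and 0.0545 with β-gal and 0.0624, 0.0682 and 0.0686 with Aloxe3 (Apoa5 over Apoc3). The ratio of Apoa1 to Apoc3, a pair transcribed from opposite strands, was 3.31 ± 0.131 and 3.38 ± 0.140 (SD, n = 3), with overlap.

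Apoh, on chromosome 11 from 108343354 to 108414396 (+ strand), had the second most negative difference. The protein binds anionic phospholipids and is associated with plasma lipoproteins, though it is not a structural part of them. It was at 47.0, 49.4 and 48.4 RPKM with β-gal and at 42.0, 43.3 and 37.6 RPKM with Aloxe3. The groups were apart by more than the range of the β-gal libraries, with Aloxe3 replicate 9 the lowest, and the mean differed by -15.1% (log2 difference -0.23, SE 0.055). Without Aloxe3 replicate 9, the library with the highest mitochondrial share, the log2 difference was -0.17. Apoh shares 30 exon bases with Prkca on the opposite strand, which was at 6.01 to 6.36 RPKM in the libraries.

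**Figure D3:**
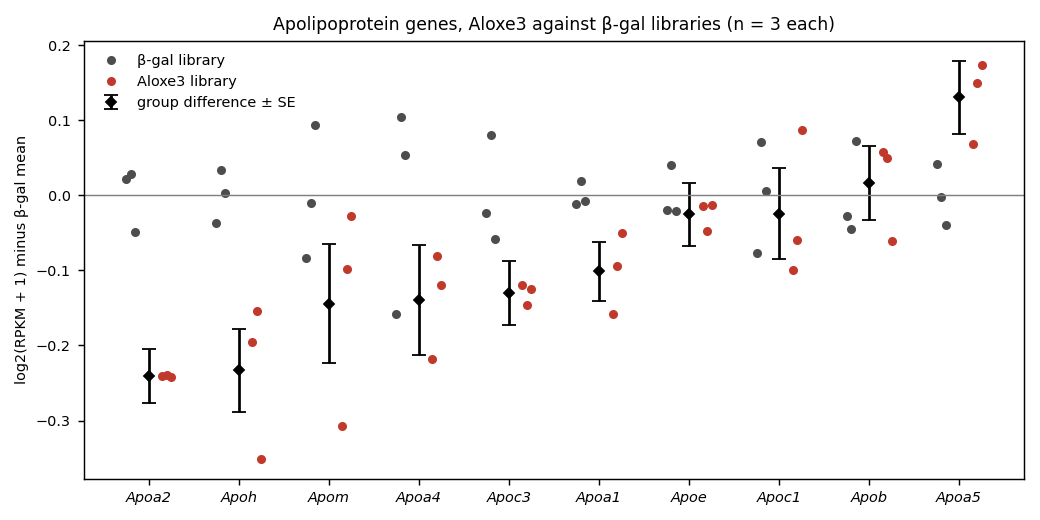
Log2(RPKM + 1) of each library minus the mean of the 3 β-gal libraries, for the 10 genes in order of the group difference, with β-gal libraries in grey and Aloxe3 libraries in red. Black diamonds are the group difference ± SE, from -0.24 for Apoa2 to 0.13 for Apoa5.

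Taken over the family, the summed level of the 10 genes was 2742, 2853 and 2763 RPKM with β-gal and 2675, 2658 and 2711 RPKM with Aloxe3. The groups did not overlap, and the ratio of the means was 0.962. Without Apoe the sums were 1223 ± 23.0 and 1146 ± 17.5 RPKM (SD, n = 3), and the share of Apoe in the sum was 56.1% ± 0.327 and 57.3% ± 0.516. As a share of reads rather than of RPKM, which gives the long Apob transcript more weight, the family took 0.729% ± 0.0119 and 0.720% ± 0.0122, and the groups overlapped.

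**Figure D4:**
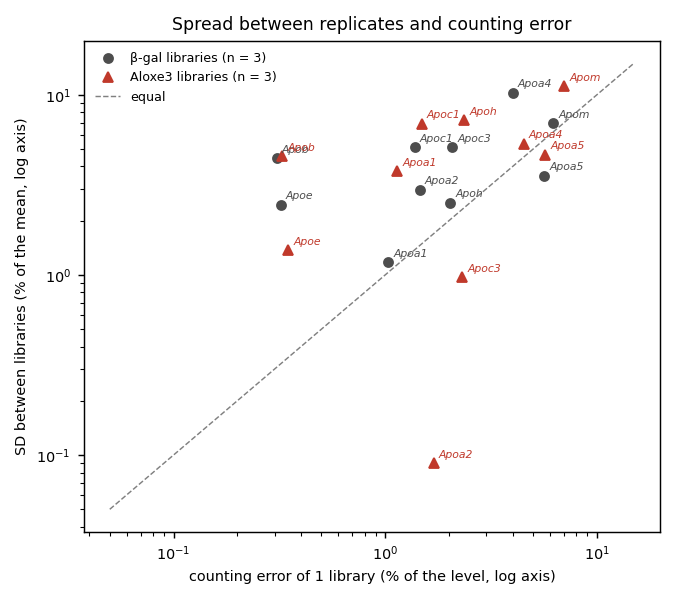
SD between the 3 libraries of a group, as a percentage of the mean, against the counting error of a single library, as a percentage of the level (both log axes), for the 10 genes in β-gal (circles) and Aloxe3 (triangles) libraries. Points above the dashed line vary more than counting alone gives, as Apob and Apoe do, and Apoa2 in the Aloxe3 libraries lies far below it, at 0.0902% against 1.69%.

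Of 14 other apolipoprotein genes 8 were above the filter. With limma 0 of these were called in either direction, also with voom (2 were higher at an unadjusted p under 0.05, 0 lower), and their median log2 difference was -0.0047. Apon, which lies beside Apof on chromosome 10, was at 5.71, 7.32 and 7.50 RPKM with β-gal and at 8.69, 8.25 and 9.19 RPKM with Aloxe3 (log2 difference 0.32, SE 0.091, limma adjusted p = 0.262). Apof, which encodes lipid transfer inhibitor protein, was at 15.5 ± 0.711 and 17.7 ± 1.64 RPKM (SD, n = 3; log2 difference 0.18, limma adjusted p = 0.334). The log2 difference of Apon was 0.21 without β-gal replicate 1 and that of Apof 0.11 without Aloxe3 replicate 7. Both had non-overlapping groups, Aloxe3 above. Apoc2, the activator of lipoprotein lipase, and Apoc4, which lie beside Apoc1 and Apoe on chromosome 7, had log2 differences of -0.02 (SE 0.093) and 0.05 (SE 0.057), with overlapping groups. With 1 library left out, that of Apoc4 ran from 0.0027 to 0.097 and that of Apoc2 from -0.10 to 0.091. Clu was at 7525 ± 86.5 and 7604 ± 223 RPKM. Apol9a and Apol9b are close paralogues, and how the counting divided reads between them was not tested, so no difference is given for them. Without this pair, left out after seeing the data, the median over the other 6 was 0.033.

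Genes that act on apolipoproteins were also counted by list, with the same fit over all genes, which called 0.355% of tested genes higher, 0.0394% lower and 0.394% in either direction. At an unadjusted p under 0.05 the shares were 7.31% higher, 5.42% lower and 12.7% in either direction. With voom the counts of 0 below were also 0, except for 1 assembly gene, Hsp90b1. Of the 25 genes of VLDL assembly and secretion 0 were called (4 higher and 1 lower at an unadjusted p under 0.05), with a median log2 difference of 0.017. The smallest adjusted p values there belonged to Hsp90b1, an endoplasmic reticulum chaperone, at 161 ± 9.60 and 200 ± 15.8 RPKM (log2 difference 0.31, limma adjusted p = 0.152), and to Mttp, which loads lipid onto apolipoprotein B, at 9.96 ± 0.347 and 11.2 ± 0.345 RPKM (log2 difference 0.15, limma adjusted p = 0.254). In the list of HDL lipidation and remodelling 12 of 15 genes were tested and 0 called (0 higher and 1 lower at an unadjusted p under 0.05; median -0.016). Its leading genes were the hepatic lipase Lipc (log2 difference -0.13, limma adjusted p = 0.367) and the HDL-bound esterase Pon1 (-0.12, limma adjusted p = 0.397). With 1 library left out, the log2 difference ran from -0.17 to -0.096 for Lipc and from -0.15 to -0.079 for Pon1.

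Of the lipoprotein uptake genes, receptors and their helpers, 15 of 16 were tested and 0 called (1 higher and 0 lower at an unadjusted p under 0.05; median 0.0017). The endocytic adaptor Dab2 had a log2 difference of 0.18 (limma adjusted p = 0.285) and the lipolysis-stimulated receptor Lsr one of -0.07 (limma adjusted p = 0.561). That of Lsr ran from -0.099 to -0.033 with 1 library left out. For the regulators of lipolysis 10 of 11 were tested and 0 called, with a median of 0.015 (0 higher and 1 lower at an unadjusted p under 0.05). They were led by the protease Furin (-0.09, limma adjusted p = 0.334) and the endoplasmic reticulum quality control adaptor Sel1l (0.14, limma adjusted p = 0.446). That of Sel1l ran from 0.078 to 0.19 with 1 library left out.

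Among 35 tested transcription regulators of apolipoprotein genes, 1 was higher and 0 lower (6 higher and 2 lower at an unadjusted p under 0.05; median 0.048). The called gene was Mlxipl, which encodes the glucose-responsive factor ChREBP, at 12.4, 13.5 and 14.5 RPKM with β-gal and 18.5, 19.6 and 21.2 RPKM with Aloxe3. Every Aloxe3 library was above every β-gal library (log2 difference 0.52, SE 0.067, limma adjusted p = 0.0271), and the call was lost when any 1 library was left out, with no filter on low values and with eBayes without trend. Onecut1, a liver-enriched factor at a low level, was at 0.473 ± 0.0396 and 0.992 ± 0.146 RPKM (SD, n = 3), a log2 difference of 0.43 that did not pass the test (limma adjusted p = 0.0869). It was 0.92 with a pseudocount of 0.1 RPKM (limma adjusted p = 0.0907) and 1.05 with voom, where it passed (adjusted p = 0.0023). Over all its alternatives the adjusted p ran from 0.0023 to 0.332. With β-gal, Onecut1 was under the filter of 0.5 RPKM, which it passed only through the Aloxe3 libraries. Nothing is read from its calls, and the 6 higher regulators above include it.

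**Figure D5:**
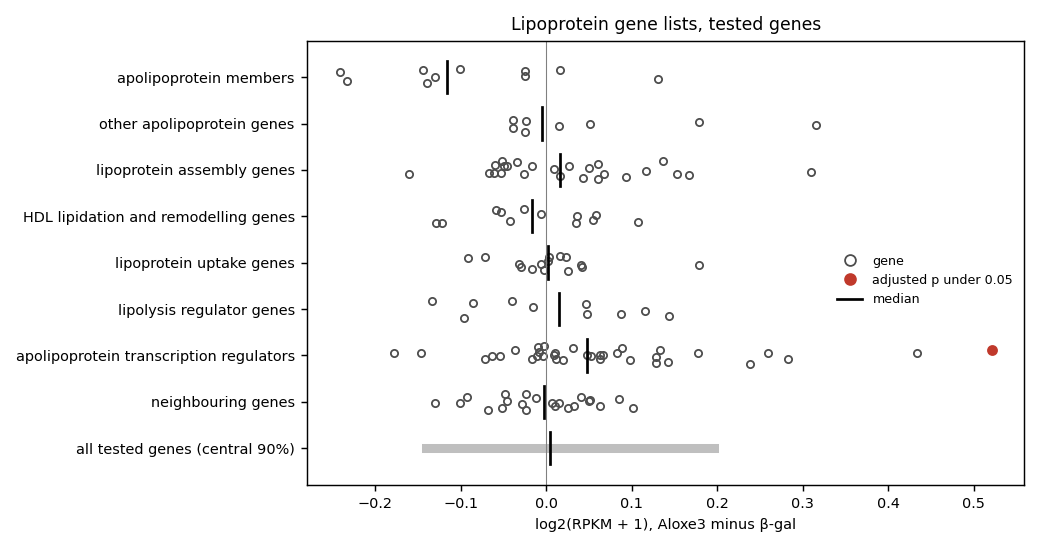
Log2 difference (Aloxe3 minus β-gal) of each tested gene in the 10 apolipoprotein genes and 7 lists of related or neighbouring genes, with the median of each as a black bar and calls of the 7 lists past an adjusted p of 0.05 in red (Mlxipl). The 10 genes are drawn without a call. The grey band is the central 90% of all tested genes; the medians run from -0.12 for the 10 genes, which were chosen on this comparison, to 0.048 for the transcription regulators.

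Genes beside the 10 on their chromosomes were examined within 50 kb. Of 37 such genes 22 were tested and 0 called (0 higher and 1 lower at an unadjusted p under 0.05), with a median log2 difference of -0.0027. In 5 of them every Aloxe3 library was below every β-gal library and in 0 every one was above, where 8.71% and 11.2% of all tested genes were so. Tomm40, next to Apoe, was at 40.5, 38.4 and 36.0 RPKM with β-gal and at 35.2, 34.3 and 35.1 RPKM with Aloxe3 (log2 difference -0.13, limma adjusted p = 0.324). Abhd16a, near Apom, was at 12.8 ± 0.343 and 12.2 ± 0.207 RPKM (SD, n = 3; log2 difference -0.07, limma adjusted p = 0.492).

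The mean of the 10 genes on the centred log2 scale was 0.0074, 0.077 and 0.050 in the β-gal libraries and -0.078, -0.027 and -0.028 in the Aloxe3 libraries. Over the 6 libraries, the 4 genes whose values followed this profile most closely, of 7357 candidates with a mean of at least 5 RPKM, were Hacd1 (Pearson r = 0.999), Irgq (0.990), Zc3h12a (0.986) and Sytl5 (0.974). Their own log2 differences were between -0.12 and -0.09. With so many candidates and 6 points that share 2 groups and their depths, values of r this high are a description only.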

How the data were processed

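Poly-A RNA of 6 hepatocyte libraries was sequenced as single reads of 50 bases. The authors aligned the reads with STAR 2.0.4b to an Ensembl annotation of GRCm38.p2, counted unique reads with featureCounts 1.4.5 (Subread), and deposited RPKM values for 41388 genes; how counts became RPKM was not given in the sources used here. The deposited RPKM were not rescaled. Symbols and coordinates were added from GENCODE M21 (40340 identifiers matched, 1048 did not). Values of a gene are whole multiples of 1 read's worth, which gave library sizes and reads per gene; 1 read on 1 kb was worth 0.0308 to 0.0392 RPKM. For Apoc1, Apoe and Apoa5, whose length in the values differs from GENCODE, the smallest length that gives whole reads was taken. Counting errors cover counting only.

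Genes averaging 0.5 RPKM or more were fitted on the scale of log2(RPKM + 1), which understates changes of low genes, with limma 3.58.1 (R 4.3.3; eBayes with trend, two-sided) and Benjamini-Hochberg adjustment over all 12693. All pairs of replicates differed by more than sampling noise (chi-square per degree of freedom 3.25 to 8.99). P-values measure only the spread between these samples, and exact permutation of 3 against 3 gives at least 0.1. The 10 genes and all lists were chosen with earlier results of these data known. Named genes were the 10, Aloxe3, cell type markers, in each list the called genes and the 2 with the smallest adjusted p, Apoc2 and Apoc4, and the 5 most alike in profile, of which 1 is not reported here. Clu was added after its level was seen. Alternatives were other pseudocounts, filters and scalings, eBayes without trend, voom on derived reads, and each library left out. In simulated reads for this comparison (dispersion 0.003, 12694 genes), 90 of 97 genes changed 2-fold and 21 of 99 changed 1.25-fold were called, with 11 of 12498 unchanged genes. Protein sequences were not used here. Python 3.11.15, numpy 2.4.6, pandas 2.3.3 and matplotlib 3.10.9 were used.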

Additional observations from a re-analysis of the deposited data

How the results depend on the processing

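Of 138 alternative values for the counts, the summed level, the median and Aloxe3, 119 were taken as unchanged. For a count this meant equal to the main count or within 1.5-fold of it. For the median and the summed level it meant within the pooled SD between libraries, and for Aloxe3 the same sign and call. Most of the 119 were list counts that were 0 and stayed 0. The count of all genes was unchanged in 5 of 13 alternatives and that of transcription regulators in 4 of 13. The count of all genes past the threshold was 50, and it was 7 with no filter on low values, 174 with voom on the derived reads and 6 to 19 with 1 library left out (9, 10 and 16 without β-gal replicates 1, 2 and 3, and 6, 11 and 19 without Aloxe3 replicates 7, 8 and 9). The count for transcription regulators, 1, became 0 with no filter, with eBayes without trend and with any library left out. It became 2 with voom (Mlxipl and Onecut1), and Onecut1 passed the filter only through the Aloxe3 libraries. The count for assembly genes became 1 with voom (Hsp90b1, adjusted p = 0.0077, range over its alternatives 0.0077 to 0.363). The median log2 difference of the 10 apolipoprotein genes was -0.12, with a range of -0.13 to -0.068 when 1 library was left out, the latter without Aloxe3 replicate 7. The ratio of their summed RPKM, 0.962, ranged from 0.953 to 0.974. Reversals among other apolipoproteins were Apoc2, 0.091 without Aloxe3 replicate 8 (range with 1 library left out -0.10 to 0.091), and Clu, -0.058 with quantile normalization and -0.0027 without Aloxe3 replicate 9 (range with 1 left out -0.0027 to 0.038). The cause was not tested. No paired analysis was possible because the groups share 0 replicate numbers. No rule for single outlying values was applied to groups of 3.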
